A study of Mus musculus with 8 samples.

Results

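The genes described here are 4 that carry out the alpha-oxidation of phytanic acid in mouse liver: Slc27a2, Phyh, Hacl1 and Aldh3a2. They were chosen by name, as every probe set whose array annotation gives exactly 1 of these symbols. This found 4 probe sets, 1 for each gene, of the 45037 on the array that are not controls. They were followed in 8 livers, each from a mouse aged 2 days, 4 with the genotype Mfp2 -/- and 4 wild type (WT), with 1 Affymetrix array of total RNA per liver. Mfp2 stands for multifunctional protein 2, a peroxisomal enzyme whose gene is Hsd17b4. The strain, the sex, the litters and how the Mfp2 allele was made are not stated in the labels. The labels name no separate litters or collections behind the replicate numbers, so p-values measure the spread between these livers alone.

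Phytanic acid is a branched fatty acid from the diet, derived from the phytol side chain of chlorophyll. A methyl group at the third carbon blocks ordinary beta-oxidation, so peroxisomes first remove a single carbon by alpha-oxidation. The acid is joined to coenzyme A, hydroxylated by Phyh, split by Hacl1 into formyl-CoA and pristanal, and the aldehyde is oxidised to pristanic acid. Pristanic acid is then shortened by peroxisomal beta-oxidation, in which Mfp2 catalyses the hydration and dehydrogenation steps. The 4 genes therefore act upstream of the enzyme that these knockout mice lack. Loss of PHYH in people causes Refsum disease, and loss of ALDH3A2 causes Sjögren-Larsson syndrome.

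Arrays correlated at 0.983 to 0.993 within genotypes and 0.976 to 0.989 between them (Pearson, over all probe sets). Hsd17b4 lay between 3.25 and 4.29 in the knockout livers and between 8.15 and 8.97 in the wild type livers on the log2 scale, so each array fitted its label. Hepatocyte markers were bright in every liver, and the mean of 14 of them lay between 12.17 and 12.32 in knockout and between 12.02 and 12.15 in wild type livers, without overlap. The livers also held transcripts of other cells. The mean of 13 erythroid markers lay between 8.02 and 8.68 in knockout and between 9.03 and 9.25 in wild type livers, and 4 of the 13 fell in the limma fit (adjusted p under 0.05), against 0.841% of all 18193 genes. These are bulk values, in which fewer cells of a type and less RNA per cell cannot be told apart. Xist, which is made in female cells, ran from 3.46 to 9.28 in knockout and from 2.83 to 8.67 in wild type livers, so both sexes were present in each group. RNA quality, read as the 3' minus the 5' signal of actin, was 0.703 on average on the knockout and 0.619 on the wild type arrays (exact permutation p = 0.343).

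Of the 4 alpha-oxidation genes, Phyh alone rose past the threshold. All 4 had higher means in the knockout livers, with a median difference of 0.43 on the log2 scale, against a median of 0.02 and a share of 54.1% with higher means over all probe sets. With limma's test and Benjamini-Hochberg adjustment over all probe sets, 1 of 4 had an adjusted p under 0.05, where 0.198% of all probe sets were higher at that threshold. At an unadjusted p under 0.05 there were 3 of 4, against 5.17% of all probe sets. The knockout values lay entirely above the wild type values in 2 of 4, Phyh and Aldh3a2, against 3.09% of all probe sets. These shares include dim probe sets, while all 4 members were brighter than the median probe set. Refitted without the probe sets below that median, 1 of 4 passed, against 0.506% of the probe sets kept. The members were chosen with earlier results of these arrays known, so these counts are descriptions.

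**Figure D1:**
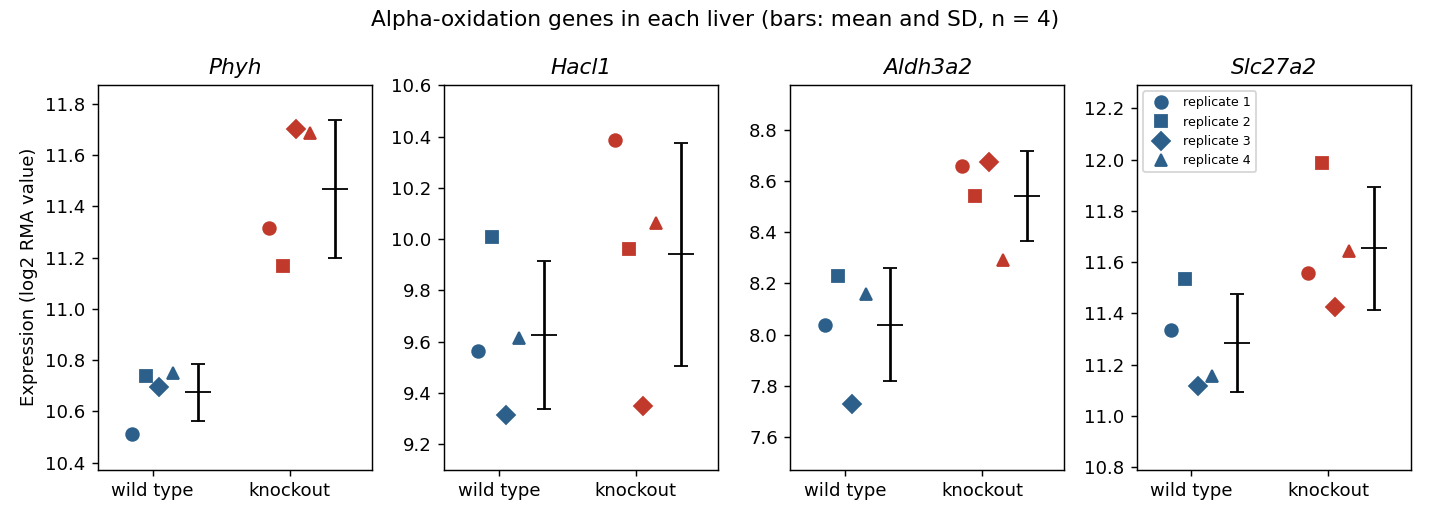
Each panel plots the log2 RMA value of 1 gene (vertical axis, all panels spanning the same number of log2 units) in the wild type (blue) and knockout (red) livers, with marker shapes for the replicate numbers and bars for the mean and SD of 4 livers. Phyh and Aldh3a2 separate the genotypes, with Phyh at 10.51 to 10.75 in wild type and 11.17 to 11.70 in knockout livers, while Hacl1 and Slc27a2 overlap.

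Activation is the first step. Slc27a2 encodes a very long-chain acyl-CoA synthetase of peroxisomes and the endoplasmic reticulum, also known as FATP2, that can join phytanic and pristanic acid to coenzyme A. Its log2 values were 11.56, 11.99, 11.43 and 11.64 in knockout 1 to 4 and 11.34, 11.53, 11.12 and 11.16 in wild type 1 to 4. The groups overlapped, since knockout 3 lay below wild type 2, and knockout 2 was the highest of the 8 livers. Knockout livers averaged 11.65 ± 0.24 (SD, n = 4) and wild type livers 11.29 ± 0.19. Slc27a2 differed by 0.37 ± 0.14 (SE), or 1.29-fold (limma adjusted p 0.335). Its 95% interval ran from 0.05 to 0.68, and the exact permutation test, two-sided, gave p = 0.0571.

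Hydroxylation is the step of Phyh, phytanoyl-CoA 2-hydroxylase, a peroxisomal dioxygenase that uses iron and 2-oxoglutarate. Its log2 values were 11.32, 11.17, 11.70 and 11.69 in knockout 1 to 4 and 10.51, 10.74, 10.70 and 10.75 in wild type 1 to 4. The lowest knockout liver stood 0.42 above the highest wild type liver, and knockout 3 and knockout 4 were the highest. The means were 11.47 ± 0.27 (SD, n = 4) and 10.67 ± 0.11. Phyh rose by 0.79 ± 0.14 (SE), or 1.73-fold, with a 95% interval of 1.40-fold to 2.14-fold and a limma adjusted p of 0.0400. The exact permutation p was 0.0286, the smallest that 4 against 4 livers can give.

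The rise of Phyh lay close to the threshold, and the call depended on single arrays. Without knockout 2 or without wild type 2 it still passed, with limma adjusted p of 0.0243 and 0.0486. It was lost when replicate 1, 3 or 4 of either genotype was left out singly, where adjusted p lay between 0.0618 and 0.139, while the difference stayed between 0.72 and 0.84. In those fits 4 to 47 of all probe sets were higher at the threshold, against 89 with all arrays. Without knockout 2 there were 56, and without wild type 2 there were 133. Over all 23 alternative settings run on the member genes, its adjusted p lay between 0.0184 and 0.9998. Adjusted for the Y-linked mean, the difference of Phyh was 0.84. Restricted to replicates 1 and 2 the difference of Phyh was 0.62, and restricted to replicates 3 and 4 it was 0.97. In replicates 1 and 2, Xist was at 8.59 and 9.28 in knockout and at 2.83 and 4.19 in wild type livers. Sex and genotype therefore cannot be told apart in that restricted fit. In replicates 3 and 4, Xist was at 3.87 and 3.46 in knockout and at 8.67 and 4.32 in wild type livers.

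Erythroid transcripts fell in the knockout livers, and fell most in knockouts 3 and 4, where Phyh was highest. Relative to the wild type mean, Phyh was higher by 0.64, 0.49, 1.02 and 1.01 in knockout 1 to 4, and the mean of the erythroid markers stood at -0.67, -0.46, -1.03 and -1.12 in the same livers. Knockout 2 thus had the smallest and knockouts 3 and 4 the largest departures in both. The same livers parted by Xist, which was at 8.59 and 9.28 in knockouts 1 and 2 and at 3.87 and 3.46 in knockouts 3 and 4, so that sex and the erythroid level cannot be told apart among the knockout livers. In wild type 1 to 4, Phyh stood at -0.16, 0.06, 0.02 and 0.08 and the erythroid mean at -0.01, -0.11, 0.11 and 0.00 relative to their means, with no such order. Nor did the other genes follow it in the knockout livers. Relative to the wild type mean, Slc27a2 and Hacl1 were lowest in knockout 3 (0.14 and -0.28) and Aldh3a2 in knockout 4 (0.25). With the erythroid mean as a covariate in limma, the difference of Phyh was 0.14 ± 0.22 (SE), with an adjusted p of 0.983. Without a covariate, Slc27a2, Aldh3a2 and Hacl1 differed by 0.37, 0.50 and 0.32. With the erythroid mean they differed by 0.66 ± 0.33, 0.53 ± 0.32 and 0.55 ± 0.52 (adjusted p 0.979 each). No knockout value of that mean overlapped a wild type value, so the erythroid mean and genotype cannot be told apart in that fit, in which 0 of all probe sets passed and 2071 had an unadjusted p under 0.05. The mean of the hepatocyte markers also differed between genotypes, by 0.14. Of the 14 markers, 12 had higher means in knockout livers, while Alb (-0.05) and Ttr (-0.18) had lower means. With the hepatocyte mean as a covariate, Phyh differed by 0.50 ± 0.22 (SE) and lost its call, with an adjusted p of 0.9998. Slc27a2, Aldh3a2 and Hacl1 differed by 0.37, 0.47 and 0.66 with it. In that fit 0 of all probe sets passed and 1615 had an unadjusted p under 0.05. The hepatocyte mean did not overlap between genotypes either, so it and genotype cannot be told apart there. When each array instead was scaled to its own hepatocyte mean, an alternative added after the values were seen that moved the median of all probe sets to -0.13, Phyh differed by 0.65 ± 0.13, with an adjusted p of 0.0357. The part of either cell type in the rise of Phyh was not tested.

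**Figure D2:**
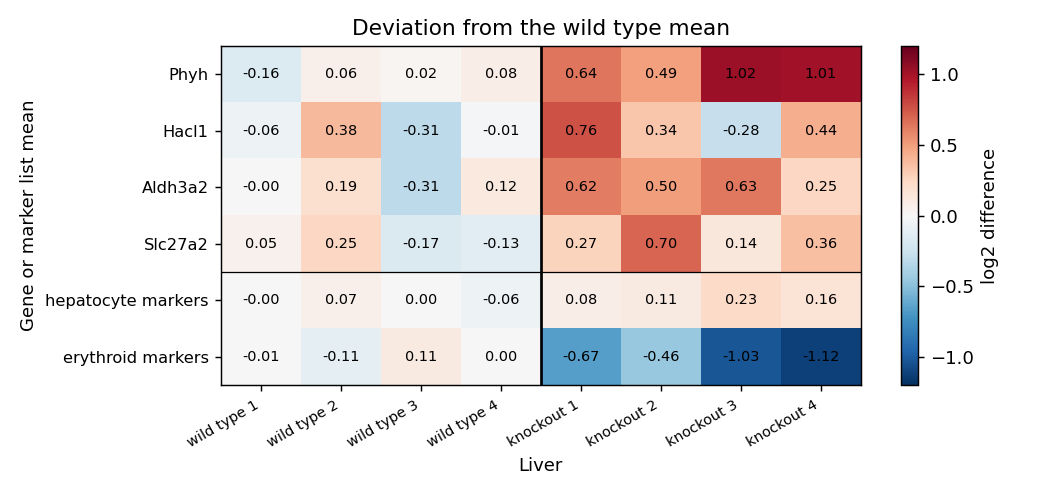
Each cell gives the log2 difference of 1 liver (horizontal axis) from the mean of the 4 wild type livers, for the 4 genes and for the means of the hepatocyte and erythroid marker lists (vertical axis), coloured from blue (lower) to red (higher). Phyh is highest where the erythroid mean is lowest, in knockout 3 (1.02 and -1.03) and knockout 4 (1.01 and -1.12), and Hacl1 is at -0.28 in knockout 3.

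Cleavage is the step of Hacl1, 2-hydroxyacyl-CoA lyase 1, a peroxisomal enzyme that needs thiamine pyrophosphate and releases formyl-CoA. Its log2 values were 10.39, 9.96, 9.35 and 10.06 in knockout 1 to 4 and 9.56, 10.01, 9.31 and 9.61 in wild type 1 to 4. The groups overlapped widely, and knockout 3 lay below all wild type livers but wild type 3. The means were 9.94 ± 0.43 (SD, n = 4) and 9.63 ± 0.29. The difference was 0.32 ± 0.22 (SE), with a limma adjusted p of 0.653 and a 95% interval from -0.17 to 0.80. A rise as large as that of Phyh therefore lies at the upper edge of the interval of Hacl1. Without knockout 3 the difference was 0.51 ± 0.17 (adjusted p 0.339), and without knockout 1 it was 0.17 ± 0.21 (adjusted p 0.835), both short of the threshold, as in all 23 alternatives (adjusted p 0.339 to 0.9998).

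Aldehyde oxidation is the step of Aldh3a2, the fatty aldehyde dehydrogenase, a membrane enzyme of the endoplasmic reticulum with a peroxisomal isoform that turns pristanal into pristanic acid and also acts on long-chain aldehydes from sphingolipids and ether lipids. Its log2 values were 8.66, 8.54, 8.67 and 8.29 in knockout 1 to 4 and 8.04, 8.23, 7.73 and 8.16 in wild type 1 to 4. The groups did not overlap, but knockout 4 stood a mere 0.06 above wild type 2. The means were 8.54 ± 0.18 (SD, n = 4) and 8.04 ± 0.22. The difference was 0.50 ± 0.13 (SE), or 1.42-fold, with a 95% interval from 0.20 to 0.80. The limma adjusted p was 0.142, short of the threshold, with 0.0951 to 0.9998 over the 23 alternatives, and the exact permutation p was 0.0286. The probe set does not tell the isoforms of Aldh3a2 apart as far as the annotation goes.

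The genes were not shown to have changed by unequal amounts. In each liver the value of 1 gene was subtracted from that of another, and these differences were compared between genotypes with the exact permutation test, two-sided, in all 6 pairs. Phyh exceeded Hacl1 in its knockout difference by 0.48 (exact p = 0.200), Slc27a2 by 0.43 (exact p = 0.143) and Aldh3a2 by 0.29 (exact p = 0.171), each with 0.400 after adjustment over the 6 pairs. The other pairs had exact p between 0.543 and 0.886. The smallest exact p that these livers can give is 0.0286, so a lone pair could not have passed after adjustment over the 6 pairs. The adjusted values therefore cannot decide whether a single pair of genes differed. The unadjusted values were not bound in this way, and none was under 0.05. The call on Phyh and the lack of one on the other genes is by itself no evidence that they differ.

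Within genotypes 0 of 6 pairs of the 4 genes had a correlation past the threshold, which 8 livers leave imprecise. Correlations were taken between the deviations of the 8 livers from their genotype means, with exact permutation within genotypes, in 6 pairs. Pearson's r was lowest for Phyh and Slc27a2, at -0.55 (exact p = 0.236, 0.802 adjusted over the pairs), with a Spearman's rho of -0.62 (exact p = 0.181, 0.573 adjusted). Without the 2 livers farthest from the median of Phyh, knockout 2 and wild type 1, that r was -0.07, so it rests on them. It was highest for Hacl1 and Slc27a2, at 0.51 (exact p = 0.267, 0.802 adjusted) with a rho of 0.57 (exact p = 0.191, 0.573 adjusted), and r was 0.63 without knockout 1 and knockout 3 and 0.30 without knockout 3 alone. Knockout 3 was the highest of the knockout livers for Phyh and for Aldh3a2 and the lowest for Hacl1 and for Slc27a2.

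None of the 4 genes had another of them among the 3 genes that followed it most closely within genotypes. Among 11813 genes brighter than the median probe set, the closest to Phyh was Slc66a1 (Pearson's r 0.98 over 8 livers), followed by Trmt2b and Pfn2 (both 0.97). Slc27a2 was followed most closely by Proc, which encodes the hepatocyte product protein C (0.99), Ipo9 (0.99) and Trim14 (0.98). Hacl1 was closest to Arrdc2, Rbpj and Tasp1 (0.97 to 0.98). The gene closest to Aldh3a2 was Ilvbl (0.95), which encodes a second 2-hydroxyacyl-CoA lyase, located in the endoplasmic reticulum, and then Azin2 and Kbtbd2 (both 0.93). These are the highest of 11813 correlations for each gene, over 8 points that share array and normalization, and they are descriptions.

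The sequences just before the start sites are shown because the 4 genes differ in the motifs they hold there. All 4 were found in the RefSeq promoter table of the mouse assembly GRCm38.p6, which gives 250 bases before and 50 after a start site for each gene. The last 60 bases before the start, on the strand of the gene, follow with motifs in capitals, for Phyh (chr2:4918936-4918995, plus strand), Hacl1 (chr14:31640966-31641025, minus strand), Aldh3a2 (chr11:61267187-61267246, minus strand) and Slc27a2 (chr2:126552964-126553023, plus strand).
Phyh: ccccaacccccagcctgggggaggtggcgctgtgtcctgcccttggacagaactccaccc
Hacl1: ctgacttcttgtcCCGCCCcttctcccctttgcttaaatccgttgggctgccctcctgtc
Aldh3a2: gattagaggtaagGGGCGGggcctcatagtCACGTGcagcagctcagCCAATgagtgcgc
Slc27a2: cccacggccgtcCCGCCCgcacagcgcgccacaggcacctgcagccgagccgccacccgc

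A GC box, GGGCGG on either strand, lay in the window of Hacl1, Aldh3a2 and Slc27a2, which is 3 of 4, against 35.7% of 32851 promoters of the same length. Its place was -47 to -42 in both Hacl1 and Aldh3a2 and -48 to -43 in Slc27a2, which held another at -68 to -63, counted from the start site. The window of Phyh held no GC box. Aldh3a2 also held an E-box, CACGTG (7.15% of promoters), and both Aldh3a2 and Hacl1 a CCAAT box (37.4%). A match is only a run of letters and was not tested for binding.

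The half-site AGGTCA, the core of the elements that nuclear receptors such as PPARalpha with RXR recognise, was searched on both strands. It lay in the windows of Phyh and Slc27a2, both on the strand opposite to the gene, and in 16.3% of all promoters. In Slc27a2 it lay at -220 to -215 (stretch chr2:126552789-126552824, plus strand), and in Phyh it lay past the start, at 37 to 42 (stretch chr2:4919026-4919045, plus strand). The stretches follow, with the half-site in capitals as its reverse complement.
Slc27a2: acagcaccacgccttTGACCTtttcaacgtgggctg
Phyh: taagtgTGACCTgggcgcag
The exact half-site repeated in the same direction with 1 base between, a form of the PPAR element, was in none of the 4 windows and in 0.0396% of all promoters. An exact match is so rare that its absence here does not show that these genes lack such an element. Looser matches and sequence outside the windows were not searched.

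Among the steps around alpha-oxidation, the genes that passed the threshold belonged to acyl-CoA activation and transport. Across 10 lists of other genes of the pathway and its relatives, 57 of 64 entries besides Hsd17b4 were measured, each by its brightest probe set. Of these, 3 rose and 0 fell in limma at an adjusted p under 0.05, against 0.308% and 0.841% of all genes. At an unadjusted p under 0.05 there were 14 higher and 2 lower, against 6.4% and 8.18% of all genes. Their median difference was 0.11, against 0.01 over all genes. The count of these genes called higher was 3 without wild type 2 and 1 without replicate 1 of either genotype. It was 0 without knockout 2 or without replicate 3 or 4 of either genotype. Higher calls over all probe sets ran from 4 to 133 in these fits, against 89 with all arrays.

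**Figure D3:**
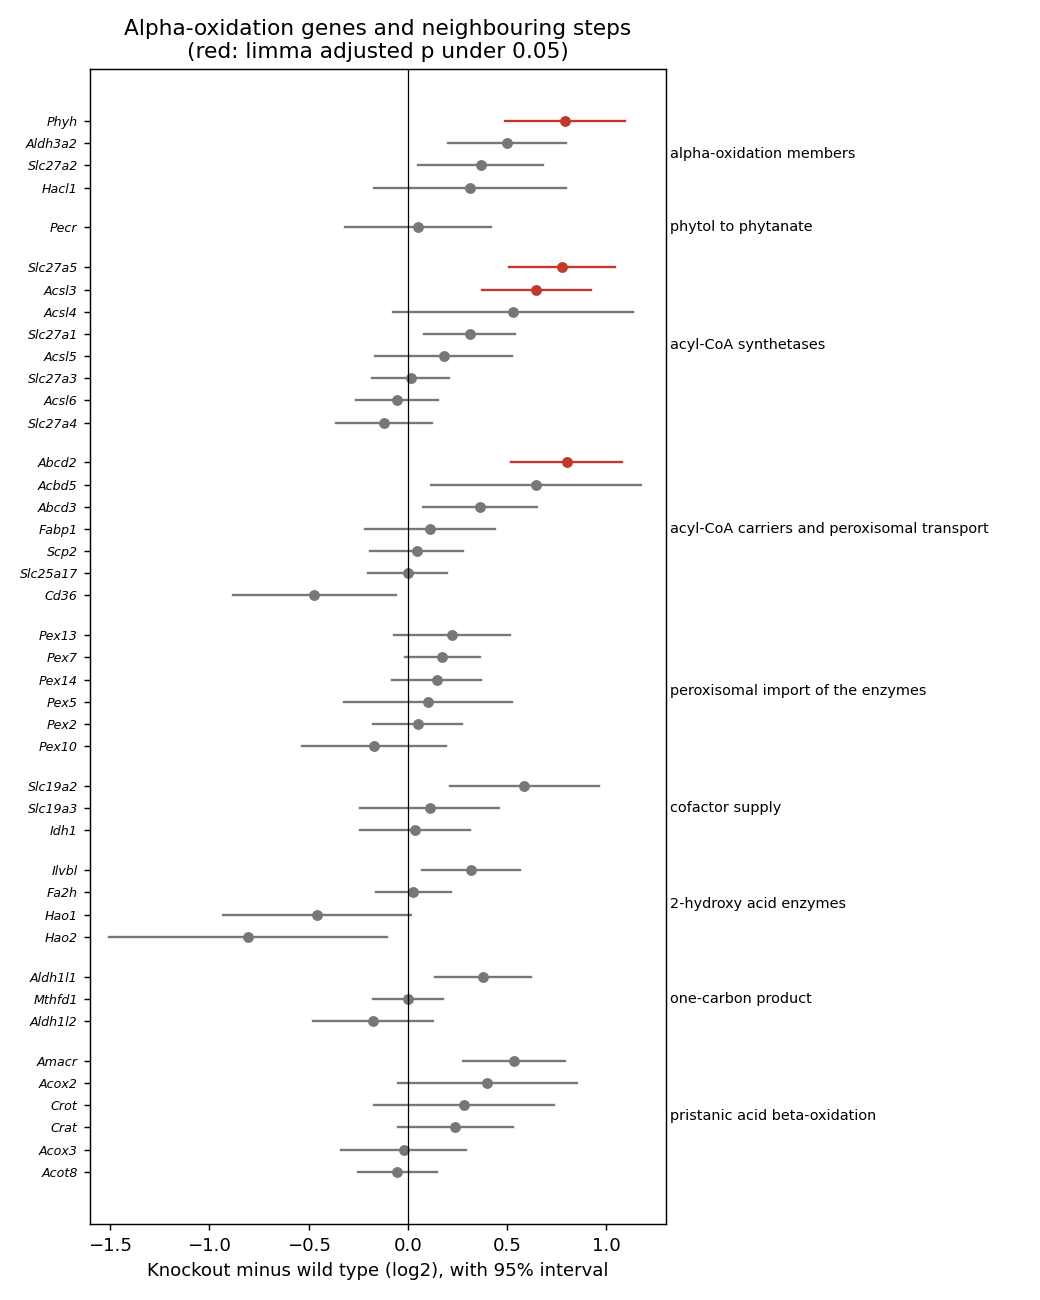
Points give the log2 difference, knockout over wild type (horizontal axis), with 95% intervals for the 4 alpha-oxidation genes and for genes of 8 neighbouring lists (vertical axis), red where the limma adjusted p was under 0.05; the other aldehyde dehydrogenases and the relatives of Phyh are not drawn. Phyh (0.79), Slc27a5 (0.78), Acsl3 (0.65) and Abcd2 (0.80) are the red points.

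Among 8 other acyl-CoA synthetases 2 rose, against 0.308% of all genes. Slc27a5, the relative of Slc27a2 that activates bile acids, lay between 9.79 and 10.18 in knockout and between 8.999 and 9.40 in wild type livers, and rose by 0.78 ± 0.12 (SE, adjusted p 0.0340). Acsl3, a long-chain synthetase of the endoplasmic reticulum and lipid droplets, rose by 0.65 ± 0.12 (adjusted p 0.0499), while its 2 dimmer probe sets differed by 0.28 and 0.01. The list had a median of 0.25. Among 7 genes of fatty acid and acyl-CoA binding and transport 1 rose, against 0.308% of all genes. This was Abcd2, a peroxisomal fatty acid transporter, at 0.80 ± 0.13 (adjusted p 0.0352), with its other 3 probe sets at 0.37 to 0.83. At an unadjusted p under 0.05 there were 3 higher and 1 lower, against 6.4% and 8.18% of all genes. The lower one was Cd36, named after its values were seen, at -0.47 ± 0.18 (adjusted p 0.343), with its other probe sets at -0.26 and -0.39. The list had a median of 0.11.

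The remaining 8 lists, with 43 measured genes, had 0 past the threshold in limma in either direction. At an unadjusted p under 0.05 there were 8 higher and 1 lower, against 6.4% and 8.18% of all genes. Of the 6 import genes of peroxisomes, Pex7, the receptor that brings Phyh in by its amino-terminal signal, had the lowest p and differed by 0.17 ± 0.08 (SE, adjusted p 0.481). Of the 3 cofactor genes it was Slc19a2, a thiamine transporter that serves the cofactor of Hacl1, at 0.59 ± 0.17 (adjusted p 0.176), with its other probe sets at 0.62 and 0.72. Pecr, a peroxisomal reductase that makes phytanoyl-CoA on the way from phytol, was at 0.05 ± 0.17 (adjusted p 0.946).

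Downstream, Amacr, the racemase that readies pristanoyl-CoA for beta-oxidation, had the lowest p of 7 measured genes, at 0.54 ± 0.11 (SE, adjusted p 0.0731), with knockout values above all wild type values. The median of that list was 0.24. Of the 3 genes that handle the released carbon, Aldh1l1, a 10-formyltetrahydrofolate dehydrogenase, was at 0.38 ± 0.11 (adjusted p 0.173). Its other probe set was at 0.05. Among the 4 genes of 2-hydroxy acids, Ilvbl had the lowest p, at 0.32 ± 0.11 (adjusted p 0.274), with its other probe set at 0.11. Hao2, a peroxisomal 2-hydroxy acid oxidase, named after its values were seen, was at -0.81 ± 0.31 (adjusted p 0.342), with all knockout values below the wild type values, as in 3.81% of all probe sets.

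Among 17 other aldehyde dehydrogenases 0 passed in limma, with a median of 0.13. At an unadjusted p under 0.05 there were 4 higher and 0 lower, against 6.4% and 8.18% of all genes. Aldh1a7 had the lowest p, at 1.47 ± 0.47 (SE, adjusted p 0.226). Of the relatives of Phyh, Phyhipl was at 0.15 ± 0.10 (adjusted p 0.663), with its other probe set at -0.04. Its group means of 3.48 and 3.33 lie below the medians of the arrays and are not shown to be above background. For comparison, 3 of 17 measured target genes of PPARalpha, the fatty acid receptor, rose, against 0.308% of all genes, and 14 were higher at an unadjusted p under 0.05, against 6.4% of all genes. Their median difference was 0.62. They were Cyp4a14, a fatty acid omega-hydroxylase, at 0.76 ± 0.12, Acaa1a, a peroxisomal thiolase, at 0.56 ± 0.11, and Abcd2. The difference of Phyh (0.79) lay above the median of that list and those of Aldh3a2 (0.50), Slc27a2 (0.37) and Hacl1 (0.32) below it.

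**Figure D4:**
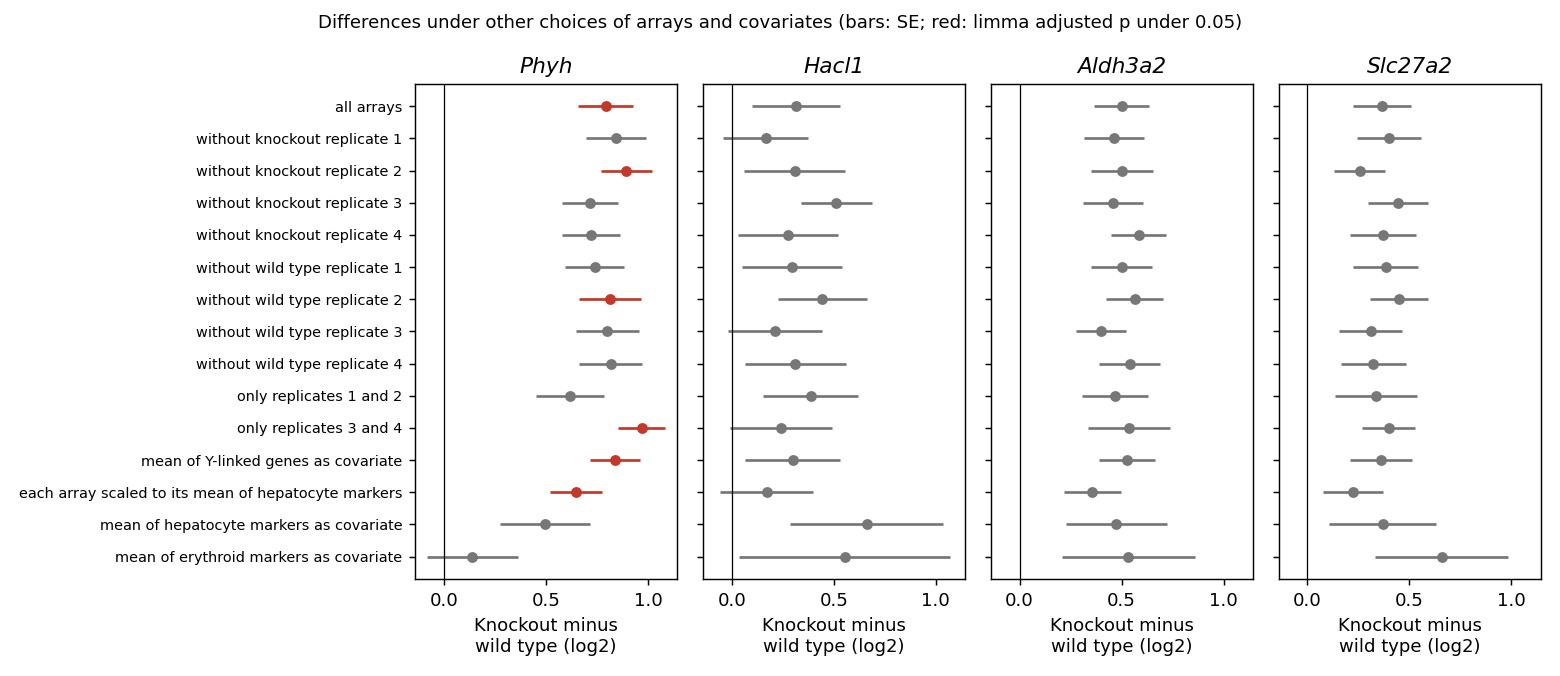
Each panel shows the difference between knockout and wild type livers of 1 gene (horizontal axis, log2, with SE bars) under 15 choices of arrays, scaling or covariates (vertical axis), red where the limma adjusted p was under 0.05. The difference of Phyh lies between 0.62 and 0.97 but for the fits with the hepatocyte mean (0.50) or the erythroid mean (0.14) as a covariate, and no point of the other 3 genes is red.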

How the data were processed

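Expression was measured in 8 livers on Affymetrix arrays. The authors deposited log2 values made by RMA (per the submitters' processing notes), a method that corrects background, equalises the distributions of the arrays and summarises each probe set. Its software is not stated. That the scale is log2 follows from the range of 1.11 to 13.7. RMA hides changes in total RNA, and the number of arrays limits the precision.

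Of 45101 probe sets, 64 controls were left out. Annotation gave 34945 probe sets 1 gene and 932 several, and left 9160 unnamed here, with symbols updated through Entrez identifiers. The brightest probe set stood for a gene, which gave 18193 genes. Knockout was compared with wild type over all 45037 probe sets with limma 3.58.1 in R 4.3.3 (lmFit, eBayes, two-sided, no covariate, Benjamini-Hochberg, threshold 0.05). On simulated data this fit recovered 20.9% of log2 changes of 0.5, 94.0% of changes of 1 and 98.5% of changes of 2. The differences of Aldh3a2 (0.50), Slc27a2 (0.37) and Hacl1 (0.32) lie near or below the smallest of these sizes. Single values used exact permutation tests. Besides every member probe set and Hsd17b4, the genes named were those of each pathway list past the threshold or else that with the lowest p, and the 3 most correlated with each member. The lists of leukocyte and Kupffer cell, bile duct, and endothelial and stellate markers had 0 genes past the threshold in either direction, with medians of -0.10, 0.11 and -0.11. The hepatocyte list had 0 as well, with a median of 0.13. At an unadjusted p under 0.05 limma gave 3 of 14 hepatocyte genes, all higher, and 0 of the other 3 lists. Over all genes 6.4% were higher and 8.18% lower in this way. The members and lists were chosen with earlier results of these data known. Replicate numbers were not used as a block, since no label ties them to a litter or batch. In a check for pairing, the correlations of deviations of same-numbered livers ran from -0.004 to 0.259.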

Additional observations from a re-analysis of the deposited data

Results flagged for a closer look

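A single value stood apart from its group, among 18 groups of 4 livers checked for the 4 genes and 5 marker lists. The mean of the endothelial and stellate markers was 6.50 in wild type 2, against 6.29 to 6.32 in the other 3 wild type livers, a gap of 0.843 of the group's range, past the 95% limit of Dixon's test for 4 values. Chance gives about 1 in 20 such groups. No value of Phyh, Hacl1, Aldh3a2 or Slc27a2 stood apart in this way.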

How the results depend on the processing

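Each of the 4 genes stayed higher in the knockout under all 23 alternatives, and the 3 that did not pass never did. Phyh kept its call in 13 and lost it in 10. It was lost with the replicate block (difference 0.79, adjusted p 0.0646), with the erythroid mean (0.14) or the hepatocyte mean (0.50) as a covariate, in replicates 1 and 2 alone (0.62), and without 6 of 8 single arrays. Leaving out each array in turn gave differences of Phyh of 0.72 to 0.89, with 4 to 133 of all probe sets higher at the threshold. There were 3 in replicates 1 and 2 alone and 0 with either mean as a covariate. The count of members that passed was thus 1 as reported and 0 in those 10. The cause was not tested. Leaving out single arrays took the other genes of the pathway from 3 higher to between 0 and 3. The replicate block took all calls from 89 higher and 254 lower to 7 and 8; 3 of 8 arrays correlated best with their own number. Dim probe sets and 4 arrays per group limit what can be seen.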
